A study of Mus musculus with 6 samples.

Results

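Interferon-stimulated genes are the genes that cells switch on when interferons, the secreted alarm proteins of antiviral defence, bind their receptors. Here they are a set of 47 genes picked by symbol, and all 47 were found among the 34745 genes listed in each library. The samples were left ventricles of mice with myocardial infarction (MI), in which a blocked coronary artery has killed part of the heart muscle and heart failure follows. One group of 3 libraries, MI-DAPA, came from infarcted mice given dapagliflozin, an inhibitor of the kidney glucose transporter SGLT2. The other group of 3, MI-NS, served as the control, and its abbreviation is not spelled out in the labels. Infarction was common to both groups, so no uninjured heart enters the comparison. The labels used here state neither the strain, sex or age of the mice nor the dose, the length of treatment or the time since infarction. They call the libraries biological replicates without naming animals, so the p-values speak to the variation among these 6 libraries, which may be technical.

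As background, type I interferons act through the receptor chains Ifnar1 and Ifnar2 and the kinases Jak1 and Tyk2. These phosphorylate Stat2, which acts in a complex with Irf9 on a DNA element called the ISRE in the promoters of target genes. Interferon gamma uses Ifngr1 and Ifngr2 and acts through another element, GAS. Many of the products block viruses at entry, at RNA stability or at translation. In the infarcted mouse heart such genes are known to be induced in macrophages and other leukocytes.

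The short promoter stretches that follow hold letter matches to the ISRE. Those of Ifit3, Ifit3b, Oas1a and Bst2 come from 4 members that were lower in MI-DAPA. Those of Ifit1, Isg15, Igtp and Irgm2 come from 4 members that did not pass the test. Only genes with such a match are shown, so these stretches cannot compare how often lower and other members carry one. Each is written 5′ to 3′ on the strand of its gene, from RefSeq on GRCm38.p6, and ends before the transcription start. Capitals mark every match to the ISRE core GAAANNGAAA on either strand, where N is any base and overlapping matches run together.
Ifit3, chr19:34583360-34583429, plus strand: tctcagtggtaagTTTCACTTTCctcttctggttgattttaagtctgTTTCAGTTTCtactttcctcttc
Ifit3b, chr19:34607756-34607825, plus strand: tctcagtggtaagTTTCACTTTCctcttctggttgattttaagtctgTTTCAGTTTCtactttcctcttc
Oas1a, chr5:120907526-120907595, minus strand: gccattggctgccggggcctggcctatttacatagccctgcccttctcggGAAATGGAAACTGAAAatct
Bst2, chr8:71537560-71537629, minus strand: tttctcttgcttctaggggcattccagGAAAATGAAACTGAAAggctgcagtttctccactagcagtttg
Ifit1, chr19:34640764-34640833, plus strand: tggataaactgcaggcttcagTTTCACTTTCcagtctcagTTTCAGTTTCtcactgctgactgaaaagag
Isg15, chr4:156200851-156200920, minus strand: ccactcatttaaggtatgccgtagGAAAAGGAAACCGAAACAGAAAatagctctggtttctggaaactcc
Igtp, chr11:58199486-58199555, plus strand: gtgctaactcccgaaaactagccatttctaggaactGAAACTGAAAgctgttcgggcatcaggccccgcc
Irgm2, chr11:58214883-58214952, plus strand: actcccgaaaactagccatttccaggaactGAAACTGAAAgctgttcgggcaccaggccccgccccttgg

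RefSeq windows from 250 bases before to 50 bases after the start were available for 35 of the 47 members. The ISRE core, searched on both strands, was present in 20 of these 35 (57.1%) and in 380 of 10202 tested genes with a window (3.72%). The GAS letters TTCNNNGAA were present in 11 of 35 members (31.4%) and in 853 of the 10202 genes (8.36%). Among members lower in MI-DAPA 10 of 17 windows held the ISRE core (58.8%), and among members that did not pass 10 of 18 did (55.6%). For GAS these counts were 5 of 17 and 6 of 18. The windows of Ifit3 and Ifit3b matched at 258 of 260 aligned bases (99.2%), with a shared run of 169 bases. Those of Igtp and Irgm2 matched at 244 of 265 (92.1%), and both printed stretches hold a GAS match. The printed stretch of Bst2 holds a GAS match as well. A match of letters describes the sequence and is not evidence of binding.

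Total counts per library ran from 17207974 to 20563188, of which 34.3% to 42.0% came from the mitochondrial chromosome. Levels are given as CPM, which are counts relative to the TMM-scaled library total. A floor of 3 counts lies between 0.133 and 0.178 CPM, for counting error alone. All 8 heart muscle markers were abundant, as the labelled tissue calls for, and Ryr2 had the fewest counts among them (11923 to 23005). The libraries numbered 3 stood apart in some respects. Their files are named in another style, and they had the highest mitochondrial shares (42.0% and 40.7%, against 34.3% to 37.6% in the other four). The replicate 3 libraries of the groups differed from each other less (chi-square over its degrees of freedom 28.8) than either did from replicates 1 and 2 of the opposite group (38.9 to 49.9). By this measure such closeness was not particular to them, as MI-NS replicate 1 and MI-DAPA replicate 2 were equally close (28.8). By another measure it was greatest for them. Deviations from the group means correlated at 0.113 between the replicate 3 libraries, the highest value between the groups. Between MI-NS replicate 1 and MI-DAPA replicate 2 they correlated at 0.0166. Bulk counts cannot tell fewer cells of a type from less RNA per cell.

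Setting MI-DAPA beside MI-NS addresses the effect of dapagliflozin on the ventricle after infarction. Interferon-stimulated genes were mostly lower in MI-DAPA, by modest amounts. All 47 members passed the filter on low counts, and 19 fell and 1 rose at an adjusted p under 0.05 (edgeR quasi-likelihood test, Benjamini-Hochberg over all genes tested). The 19 are 40.4% of the members, against 7.83% of all 13940 genes called lower, and the single rise is 2.13%, against 8.69% of all genes called higher. The falls ran from 1.22-fold to 4.27-fold. The median log2 change was -0.41 over the members and -0.02 over all genes tested. The change was negative in 45 members, and in 28 of them every MI-DAPA library lay below every MI-NS library (59.6%, against 18.5% of all genes). In 2 members, Iigp1 and Igtp, every MI-DAPA library lay above (4.26%, against 18.4% of all genes).

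**Figure D1:**
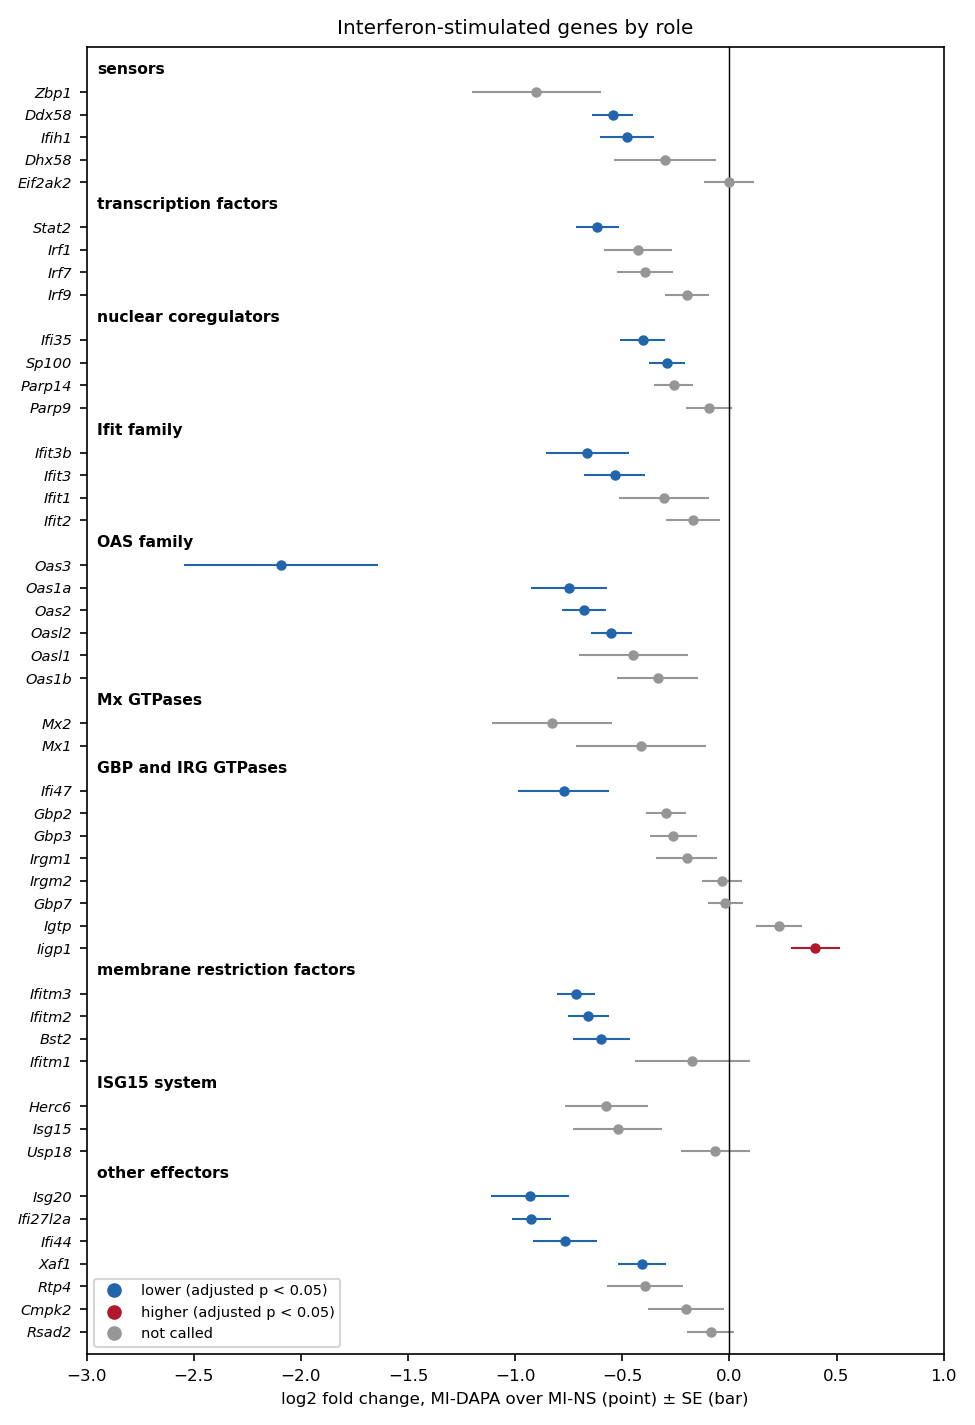
Log2 fold change of each of the 47 interferon-stimulated genes, MI-DAPA over MI-NS (point, with its SE as a bar), grouped by role and coloured by the edgeR call. The points lie left of 0 in 45 genes, Oas3 lies farthest left at -2.09, and Iigp1 at 0.40 is the single call on the right.

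The number of members called lower depended on which libraries entered the fit. Leaving out MI-NS replicate 1, 2 or 3 gave 10, 15 and 10, and leaving out MI-DAPA replicate 1, 2 or 3 gave 10, 17 and 9. All genes called lower made up 5.44%, 5.79%, 3.83%, 3.21%, 5.94% and 3.35% in those fits. With both replicates 3 left out 0 members were called by edgeR, and at an unadjusted p under 0.05 19 were lower and 2 higher. The share of all genes at that unadjusted p in this fit is not given here, so the 19 and 2 cannot be weighed. With all libraries 2279 of the 13940 genes were lower at that unadjusted p and 2220 higher, beside 28 members lower and 1 higher. Without both replicates 3, 24 genes passed in all (16 lower and 8 higher). The smallest adjusted p of a member was then 0.0517, while the median change of the members was -0.40. In replicate 3 alone, the MI-DAPA library was lower than the MI-NS library in 40 of 47 members, with a median log2 difference of -0.38 (-0.01 over all genes) and no test. An edgeR fit with a term for the differently named files, added after seeing the data, called 17 members lower (6.94% of all genes) and 0 higher, with 1 member, Iigp1, at an unadjusted p under 0.05 on that side (adjusted p = 0.0506). That fit did not call Sp100 or Xaf1. Ddx58, Stat2, Oas2, Oasl2, Ifitm2, Ifitm3, Ifi27l2a and Ifi44 kept their calls with each single library left out, and these 8 lost them without both replicates 3. The rise of Iigp1 was not called when replicate 2 or 3 of MI-NS, or replicate 1 or 3 of MI-DAPA, was left out.

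Among the sensors of foreign nucleic acid, the RNA helicases Ddx58 and Ifih1 fell. Ddx58 (ENSMUSG00000040296, chromosome 4, 40203773 to 40239828) encodes RIG-I, which detects RNA ends of viruses. It stood at 23.2, 23.2 and 24.0 CPM in MI-NS replicates 1 to 3 and at 14.4, 16.7 and 17.1 CPM in MI-DAPA. The groups did not overlap, and the mean fell 1.46-fold, from 23.5 ± 0.476 to 16.1 ± 1.46 CPM (SD, n = 3 libraries; log2 change -0.55 ± 0.10 SE, edgeR adjusted p = 0.00836). Ifih1 encodes MDA5, the sensor of long RNA duplexes, and was at 13.9, 12.5 and 13.96 CPM in MI-NS against 8.84, 11.1 and 8.96 CPM in MI-DAPA. It fell 1.39-fold (log2 -0.48 ± 0.13, adjusted p = 0.0337), with MI-DAPA replicate 2 the nearest to the controls. The call of Ifih1 was lost when replicate 1 or 3 of either group was left out.

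The other 3 sensors did not pass. Zbp1, which senses left-handed nucleic acid, had 58, 41 and 53 counts in the MI-NS libraries against 25, 38 and 17 in those of MI-DAPA. Its groups did not overlap (log2 -0.90 ± 0.30, adjusted p = 0.0759), and it was called without MI-DAPA replicate 2 (adjusted p = 0.0481). Dhx58, a regulator of the RIG-I-like sensors, overlapped between the groups, at 2.75 to 3.73 CPM in MI-NS and 2.12 to 3.39 CPM in MI-DAPA. Eif2ak2, the kinase that stops translation on binding RNA duplexes, ran from 14.1 to 17.9 CPM and from 14.9 to 17.4 CPM, with group means of 16.3 and 16.3 CPM.

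Of the transcription factors, Stat2 fell, and the 3 interferon regulatory factors did not pass. Stat2 (ENSMUSG00000040033, chromosome 10, 128270576 to 128292849) is the subunit of the ISRE-binding complex that carries its activation domain. It was at 34.8, 36.5 and 32.0 CPM in MI-NS and at 20.9, 21.6 and 24.9 CPM in MI-DAPA, without overlap. The fall was 1.53-fold, from 34.4 ± 2.28 to 22.5 ± 2.16 CPM (log2 -0.62 ± 0.10, adjusted p = 0.00642). Irf9, the DNA-binding subunit of the same complex, overlapped between groups, at 20.5 to 24.2 and 18.6 to 21.4 CPM (log2 -0.20 ± 0.10, adjusted p = 0.221). Irf7, which amplifies interferon production, did not overlap, at 11.8 to 14.1 CPM in MI-NS and 8.73 to 11.2 CPM in MI-DAPA (log2 -0.40 ± 0.13, adjusted p = 0.0724). Irf1, a factor strongly induced by interferon gamma, was at 20.8, 13.5 and 19.7 CPM in MI-NS and 13.3, 14.1 and 12.8 CPM in MI-DAPA. MI-NS replicate 2 lay within the range of MI-DAPA for Irf1 (log2 -0.42 ± 0.16, adjusted p = 0.103), and without that library the gene was called lower (adjusted p = 0.0132). Without MI-DAPA replicate 2 Irf7 was also called lower (adjusted p = 0.0486).

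Among nuclear cofactors, Sp100 and Ifi35 fell by small amounts. Sp100, a component of PML nuclear bodies, was at 37.5, 37.3 and 34.99 CPM in MI-NS and 29.7, 28.6 and 31.6 CPM in MI-DAPA. Its 1.22-fold fall (log2 -0.29 ± 0.08, adjusted p = 0.0443) was the smallest of the 19, and leaving out any 1 of the 6 libraries ended its call. Ifi35, a protein that pairs with Nmi, was at 18.4, 20.99 and 19.3 CPM against 13.4, 16.2 and 14.8 CPM and fell 1.32-fold (log2 -0.40 ± 0.11, adjusted p = 0.0327). Its call remained only without MI-DAPA replicate 2 among the single libraries left out. The ADP-ribosyltransferase family members Parp14 and Parp9 did not pass. Parp14 did not overlap, at 38.5 to 43.7 and 31.0 to 35.7 CPM (log2 -0.26 ± 0.09), whereas Parp9 overlapped at 19.96 to 22.8 and 17.4 to 21.2 CPM (log2 -0.10 ± 0.11).

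The IFIT proteins bind viral RNA and block its translation, and within this family Ifit3 and Ifit3b fell. Ifit3 was at 18.9, 14.1 and 17.1 CPM in MI-NS and 9.84, 12.1 and 12.6 CPM in MI-DAPA. It fell 1.45-fold, from 16.7 ± 2.39 to 11.5 ± 1.48 CPM (log2 -0.54 ± 0.14, adjusted p = 0.0346). Ifit3b was at 6.21, 5.49 and 7.54 CPM against 4.02, 3.30 and 4.83 CPM, a 1.58-fold fall (log2 -0.66 ± 0.19, adjusted p = 0.0492). These genes are near-identical neighbours on chromosome 19, with the same promoter stretch as printed, and the sources used here do not say how reads shared by both were counted. The groups did not overlap for either gene. Of the single libraries left out, the call of Ifit3 remained only without MI-NS replicate 2, and that of Ifit3b with none. The call of Ifit3b was also lost with DESeq2 (adjusted p = 0.0520), with the DESeq2 size factors (0.0507) and with mitochondrial genes left out (0.0520). Ifit1, the family member that binds RNA caps, had its highest values in MI-NS replicates 1 and 3 and did not pass (7.80 to 10.99 against 5.42 to 8.79 CPM, log2 -0.31 ± 0.21). Ifit2 was at 26.1, 18.6 and 20.97 CPM in MI-NS and at 19.1, 19.7 and 19.6 CPM in MI-DAPA (log2 -0.17 ± 0.13). MI-NS replicate 2 had the lowest Ifit2 level of the 6 libraries.

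Enzymes of the oligoadenylate synthetase family make the messenger that activates RNase L. Of the 6 genes of this family 4 fell (66.7%, beside 7.83% of all genes), and the others did not pass. Oas2 (ENSMUSG00000032690, chromosome 5, 120730333 to 120749853) was at 25.4, 29.4 and 29.3 CPM in MI-NS and 16.0, 18.5 and 17.98 CPM in MI-DAPA. It fell 1.6-fold, from 28.0 ± 2.30 to 17.5 ± 1.33 CPM (log2 -0.68 ± 0.10, adjusted p = 0.00553). Oasl2 (ENSMUSG00000029561, chromosome 5, 114896936 to 114912234), which carries ubiquitin-like domains, was at 20.1, 21.7 and 20.6 CPM against 13.0, 15.3 and 14.2 CPM. Its fall was 1.47-fold (log2 -0.55 ± 0.10, adjusted p = 0.00803), and in both genes the lowest control library stood clear of the highest MI-DAPA library. Oas1a was at 4.84, 4.81 and 4.93 CPM in MI-NS and 3.28, 3.00 and 2.36 CPM in MI-DAPA (1.68-fold, log2 -0.75 ± 0.18, adjusted p = 0.0245). Of the single libraries left out, its call remained only without MI-DAPA replicate 1.

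Oas3 showed the largest fold among the members on the fewest counts. The MI-NS libraries held 26, 17 and 20 counts and the MI-DAPA libraries 7, 2 and 5, of which the 2 counts of replicate 2 lie below the floor of 3. The fitted fall was 4.27-fold (log2 -2.09 ± 0.45, adjusted p = 0.0176), and the call ended when replicate 3 of either group was left out. DESeq2 gave no adjusted p for Oas3, at a log2 change of -2.11 and an unadjusted p of 0.00217. Oas1b, the neighbouring synthetase gene, was at 3.04 to 3.64 and 2.46 to 2.82 CPM without overlap and did not pass (log2 -0.34 ± 0.19). GENCODE M21 lists Oas1b as a polymorphic pseudogene rather than as protein-coding. Oasl1, a repressor of Irf7 translation in mice, overlapped at 2.91 to 4.81 and 2.09 to 3.05 CPM (log2 -0.45 ± 0.25).

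**Figure D2:**
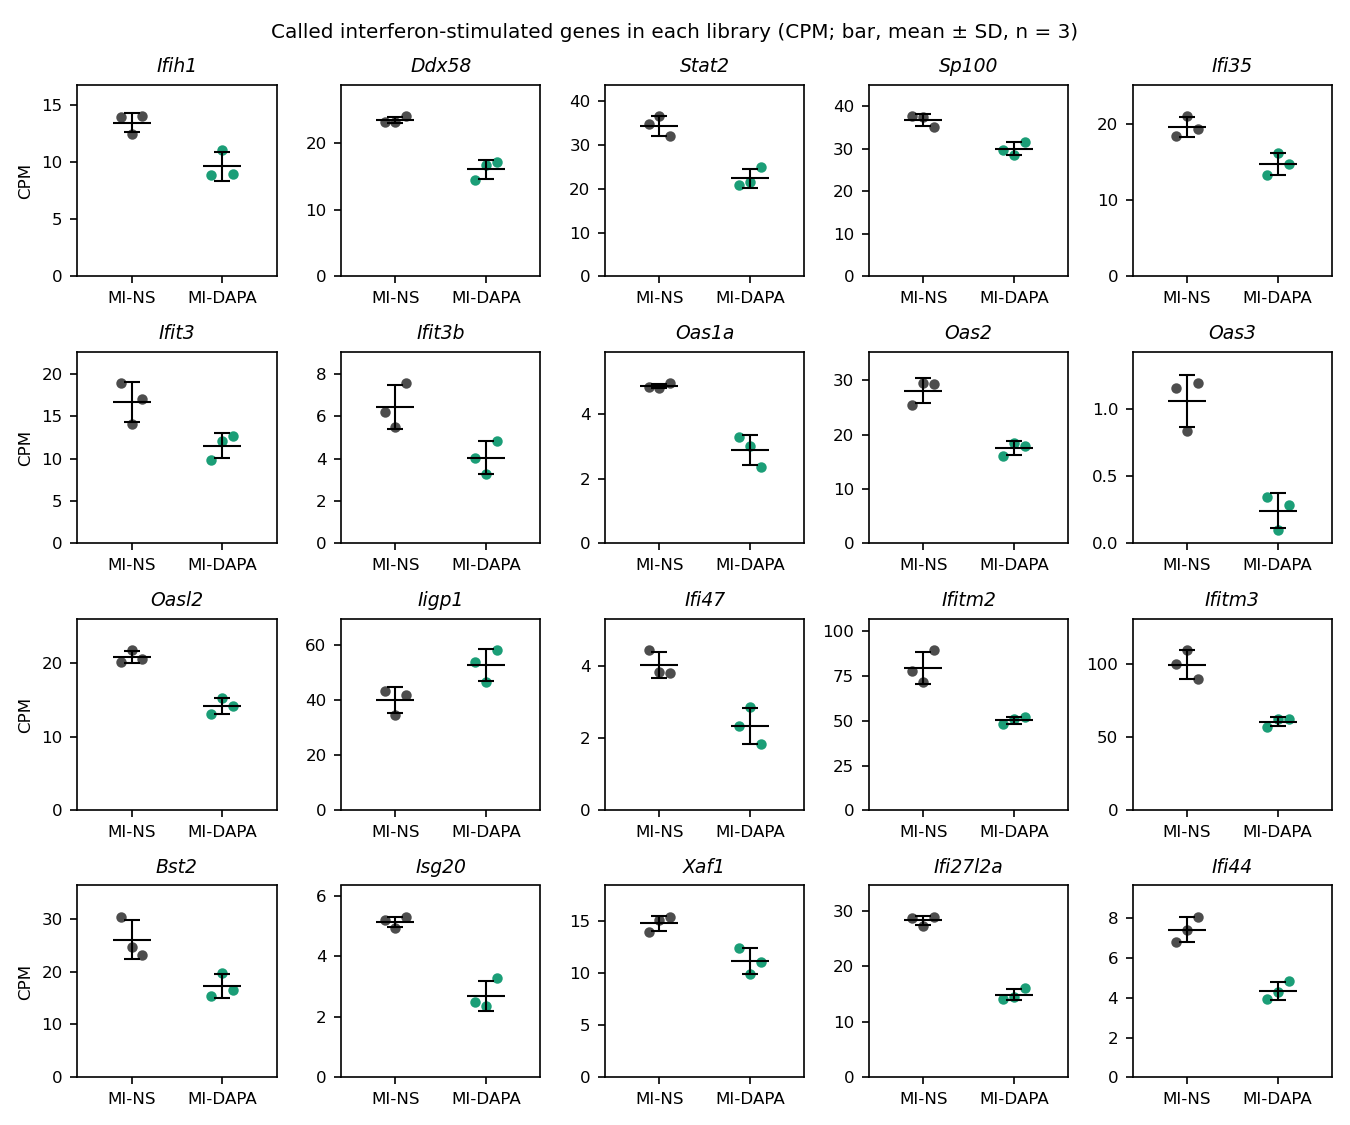
Level (CPM, from 0) of the 20 called interferon-stimulated genes in each of the 6 libraries, with the mean and SD of 3 libraries per group as bars. In 19 genes every MI-DAPA library lies below every MI-NS library, and in Iigp1 every one lies above. The genes drawn were picked by their calls in these same libraries, so this separation adds no support to the calls. Of all genes tested, 18.5% lie below in this way and 18.4% above.

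Of the interferon-induced GTPases 1 fell and 1 rose, where 7.83% of all genes were called lower and 8.69% higher. The Mx proteins trap viral nucleocapsids, and neither gene passed. Mx2 did not overlap, at 2.94 to 3.95 and 1.44 to 2.61 CPM (log2 -0.83 ± 0.28, adjusted p = 0.0773), and it was called without MI-DAPA replicate 2 (adjusted p = 0.0299). Like Oas1b, Mx2 is listed as a polymorphic pseudogene rather than as protein-coding. Mx1 stayed low throughout, with 30, 31 and 17 counts in the controls against 23, 15 and 18 after dapagliflozin (log2 -0.41 ± 0.30).

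Guanylate-binding proteins (GBP) and immunity-related GTPases (IRG) attack the vacuoles of intracellular parasites and bacteria. Of the 8 members, 1 rose, 1 fell and 6 did not pass, with a median log2 change of -0.12. Each call is 12.5% of this list, near the shares of all genes called higher (8.69%) and lower (7.83%). Iigp1 (ENSMUSG00000054072, chromosome 18, 60376029 to 60392627), an effector that coats parasite vacuoles in mice, was at 43.3, 34.6 and 41.8 CPM in MI-NS. In MI-DAPA it was at 53.7, 46.5 and 57.9 CPM. It rose 1.32-fold, from 39.9 ± 4.62 to 52.7 ± 5.76 CPM (log2 0.40 ± 0.12, adjusted p = 0.0466), and scaled by library totals alone it was at log2 0.29 with adjusted p = 0.149. Ifi47, an interferon-inducible GTPase of the IRG family, was lower, at 4.44, 3.83 and 3.80 CPM against 2.33, 2.86 and 1.84 CPM. It fell 1.71-fold (log2 -0.77 ± 0.21, adjusted p = 0.0391). Of the single libraries left out, the call of Ifi47 remained only without MI-DAPA replicate 2, and it was lost with DESeq2.

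Igtp, whose product Irgm3 regulates the effector GTPases, was at 12.1, 11.9 and 11.8 CPM in MI-NS and 14.6, 15.01 and 12.4 CPM in MI-DAPA. Every MI-DAPA library was higher, and the gene did not pass (log2 0.23 ± 0.11, adjusted p = 0.174). Irgm2, a regulator of the same family that shares 162 exonic bases with Igtp, overlapped at 24.0 to 27.8 and 24.7 to 26.8 CPM (log2 -0.03 ± 0.09). Irgm1, the regulator tied to autophagy in mice, ran from 21.4 to 24.7 CPM in MI-NS and from 15.6 to 22.5 CPM in MI-DAPA, where replicate 1 stood lowest (log2 -0.20 ± 0.14). Gbp2 and Gbp3 did not overlap between groups but did not pass. Gbp2 was at 20.9 to 22.7 and 16.4 to 19.0 CPM (log2 -0.30 ± 0.09, adjusted p = 0.0602), and it was called when scaled by library totals alone (adjusted p = 0.0456). Gbp3 was at 18.4 to 19.4 and 14.03 to 17.98 CPM (log2 -0.26 ± 0.11). Gbp7 ran from 23.0 to 23.8 CPM in MI-NS and from 22.3 to 24.1 CPM in MI-DAPA, with a log2 change of -0.02 ± 0.08.

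The membrane restriction factors included the most abundant members per length. Per kilobase of exon, Ifitm3 stood at 147 CPM and Ifitm2 at 121 CPM in MI-NS, followed by Ifi27l2a at 61.1 and Bst2 at 28.8. Oas3 was the lowest at 0.150. Ifitm3 (ENSMUSG00000025492, chromosome 7, 141009586 to 141010770) encodes an endosomal membrane protein that blocks virus fusion. It was at 99.8, 109 and 89.6 CPM in MI-NS and 57.3, 62.3 and 62.3 CPM in MI-DAPA. It fell 1.64-fold, from 99.6 ± 9.85 to 60.6 ± 2.87 CPM (log2 -0.72 ± 0.09, adjusted p = 0.00401). Ifitm2 (ENSMUSG00000060591, chromosome 7, 140954839 to 140955961), a close relative that shares 268 exonic bases with the gene model Gm45717, was at 77.9, 71.3 and 89.1 CPM against 48.1, 50.8 and 52.0 CPM. It fell 1.58-fold (log2 -0.66 ± 0.09, adjusted p = 0.00531), and for both genes the spread within MI-DAPA was narrower than within MI-NS.

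Bst2, or tetherin, holds budding virions at the cell surface and is known for expression in plasmacytoid dendritic cells. It was at 30.2, 24.7 and 23.2 CPM in MI-NS and 15.3, 19.7 and 16.6 CPM in MI-DAPA, a 1.51-fold fall (log2 -0.60 ± 0.13, adjusted p = 0.0201). The call was lost when replicate 1 of either group or replicate 3 of MI-DAPA was left out. Ifitm1, the plasma membrane member of its family, was at 3.95, 3.63 and 4.75 CPM against 2.83, 2.86 and 5.29 CPM. MI-DAPA replicate 3 was the highest of all 6 libraries for Ifitm1, which did not pass (log2 -0.17 ± 0.27, adjusted p = 0.699).

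None of the 3 genes of the ISG15 system passed (0 calls). At an unadjusted edgeR p under 0.05, 2 of them were lower, as were 2279 of all 13940 genes. Isg15, the ubiquitin-like modifier itself, was at 4.86 to 5.64 CPM in MI-NS and 2.63 to 4.38 CPM in MI-DAPA without overlap (log2 -0.52 ± 0.21, adjusted p = 0.120). Herc6, the ligase that attaches it in mice, did not overlap either, at 7.70 to 11.6 and 5.23 to 7.45 CPM (log2 -0.58 ± 0.19, adjusted p = 0.0769), and was called without MI-NS replicate 2 (adjusted p = 0.0410). Usp18, which removes the modifier and restrains the receptor, overlapped at 4.27 to 5.59 and 4.63 to 5.02 CPM (log2 -0.07 ± 0.16).

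Among the remaining effectors 4 of 7 fell (57.1%, beside 7.83% of all genes), and Ifi27l2a had the smallest p of all members. Ifi27l2a (ENSMUSG00000079017, chromosome 12, 103442167 to 103443680), a small interferon-induced membrane protein, was at 28.7, 27.4 and 28.8 CPM in MI-NS and 14.2, 14.4 and 16.1 CPM in MI-DAPA. It fell 1.90-fold, from 28.3 ± 0.816 to 14.9 ± 1.06 CPM (log2 -0.92 ± 0.09, adjusted p = 0.00224). Isg20, an exonuclease that degrades RNA, was at 5.19, 4.95 and 5.29 CPM against 2.48, 2.36 and 3.27 CPM. Its fall was 1.90-fold (log2 -0.93 ± 0.18, adjusted p = 0.0123), and the call was lost without MI-DAPA replicate 1. Ifi44 (ENSMUSG00000028037, chromosome 3, 151730922 to 151749960), an interferon-induced cytoplasmic protein, was at 6.79, 7.41 and 8.02 CPM against 3.92, 4.28 and 4.83 CPM. It fell 1.70-fold (log2 -0.77 ± 0.15, adjusted p = 0.0119). Xaf1, which counters an inhibitor of apoptosis, was at 13.97, 15.1 and 15.3 CPM against 12.4, 9.94 and 11.03 CPM (1.33-fold, log2 -0.41 ± 0.11, adjusted p = 0.0419), and leaving out any 1 library ended its call.

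Rsad2, Cmpk2 and Rtp4 overlapped between groups and did not pass. Rsad2 encodes viperin, which makes a chain-terminating nucleotide, and ran from 22.0 to 24.9 CPM in MI-NS and from 19.2 to 24.1 CPM in MI-DAPA (log2 -0.09 ± 0.11). Cmpk2, its neighbour and a nucleotide kinase, was at 10.8 to 14.5 and 9.34 to 13.98 CPM (log2 -0.20 ± 0.18). Rtp4, a chaperone of receptors, was at 7.63 to 9.74 and 5.86 to 8.45 CPM (log2 -0.40 ± 0.18).

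The libraries contributed unevenly to these differences. The highest CPM of a member was in an MI-NS library for 43 of the 47 genes (53.2% of all genes had theirs there), namely 14 in replicate 1, 8 in replicate 2 and 21 in replicate 3, where all genes had 17.1%, 19.4% and 16.7%. The lowest was in an MI-DAPA library for 41 genes (50.7% of all genes), of which 21 were in replicate 1 (21.1% of all genes). MI-NS replicate 2 was the lowest of all 6 for 5 members (21.6% of all genes). Within groups, the median SD of log2 levels over the members was 0.120 in MI-NS and 0.159 in MI-DAPA, beside 0.143 and 0.136 over all genes tested. Summed over the members, the libraries stood at 903, 855 and 897 CPM in MI-NS and at 660, 690 and 710 CPM in MI-DAPA.

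A separate list held 125 other names of the pathway, of which 124 were found, with Gbp6 under a pair of identifiers. Of its entries 60 make, receive, relay or restrain interferon signals and 65 are further interferon-induced genes. Of 37 tested entries of the first kind 6 fell and 3 rose (16.2% and 8.11%, beside 7.83% and 8.69% of all genes), and of 58 of the second 20 fell and 2 rose (34.5% and 3.45%). Over all 95 the median log2 change was -0.26. The 21 interferon genes themselves were nearly silent: 19 had 0 counts in every library, and no library had more than 1 count for any, which lies below the floor of 3. Ifng was at 0 throughout. At this depth no difference in the ligands was detectable. The count of falls on the whole list was 15, 16 and 11 without MI-NS replicates 1, 2 and 3, and 8, 17 and 9 without MI-DAPA replicates 1, 2 and 3. Over all genes the share called lower in those fits was 5.44%, 5.79%, 3.83%, 3.21%, 5.94% and 3.35%. Without replicate 3 of both groups 1 gene, Trim25, was called lower (0.114% of all genes). The count of rises dropped to 2 when replicate 3 of MI-NS or replicate 1 of MI-DAPA was left out, and was 3 when replicate 2 or 3 of MI-DAPA was. The shares of all genes called higher in these 4 fits were 4.72%, 3.81%, 7.17% and 4.79%.

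Of 6 tested receptor genes 2 fell and 1 rose (33.3% and 16.7%, beside 7.83% and 8.69% of all genes). Ifnar2, the type I chain to which Stat2 binds, was at 38.1, 25.7 and 26.7 CPM in MI-NS and 18.5, 18.4 and 18.04 CPM in MI-DAPA. It fell 1.65-fold (log2 -0.72 ± 0.15, adjusted p = 0.0151), and leaving out MI-DAPA replicate 1 or 3 ended its call. Its partner Ifnar1 did not pass, at 21.6 to 28.8 and 21.01 to 22.6 CPM (log2 -0.16 ± 0.12). For interferon gamma, the ligand-binding chain Ifngr1 was at 67.1, 69.4 and 65.3 CPM against 50.3, 56.4 and 55.6 CPM and fell 1.24-fold (log2 -0.32 ± 0.08, adjusted p = 0.0268). Of the single libraries left out, its call remained only without MI-DAPA replicate 2. The signalling chain Ifngr2 rose 1.44-fold, from 102, 88.7 and 95.5 CPM to 143, 138 and 132 CPM (log2 0.53 ± 0.08, adjusted p = 0.00535), and kept its call with each single library left out. The kinases Jak1 (log2 0.15 ± 0.07) and Tyk2 (-0.09 ± 0.09) did not pass.

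Among genes that induce interferon 3 of 16 fell and 1 rose (18.8% and 6.25%, beside 7.83% and 8.69% of all genes). Trim25, the ubiquitin ligase known for activating RIG-I, was at 54.2, 54.5 and 49.2 CPM in MI-NS and 22.9, 18.9 and 24.0 CPM in MI-DAPA. It fell 2.40-fold (log2 -1.26 ± 0.11, adjusted p = 0.00125) and passed in all 17 alternative fits. Tmem173, which encodes the DNA-sensing adaptor STING, fell from 9.67, 8.68 and 8.67 CPM to 4.07, 5.27 and 5.86 CPM (1.78-fold, log2 -0.83 ± 0.16, adjusted p = 0.0118). Myd88, the adaptor of Toll-like receptors, fell 1.34-fold (log2 -0.42 ± 0.11, adjusted p = 0.0317), a call that of the single libraries left out remained only without MI-NS replicate 2. Mavs, the mitochondrial adaptor that RIG-I and MDA5 share, rose from 48.1, 43.3 and 47.3 CPM to 63.3, 56.9 and 66.8 CPM (1.35-fold, log2 0.43 ± 0.09, adjusted p = 0.0141). The call of Mavs was lost without MI-DAPA replicate 1 and when scaled by library totals alone. Of 10 tested genes that restrain signalling, Socs3 fell 1.66-fold (log2 -0.73 ± 0.19, adjusted p = 0.0335), and Ptpn11 rose 1.3-fold (log2 0.38 ± 0.08, adjusted p = 0.0166). Each call is 10% of that list, near the shares of all genes. Of single libraries left out, the call of Socs3 remained in just the fit lacking MI-DAPA replicate 2, whereas leaving out MI-NS replicate 3 or MI-DAPA replicate 1 ended that of Ptpn11.

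The 58 tested entries for further interferon-induced genes had a median log2 change of -0.33. B2m, the light chain of class I histocompatibility molecules, fell 1.51-fold, from 294 ± 19.4 to 195 ± 14.2 CPM (log2 -0.60 ± 0.08, adjusted p = 0.00499). The surface proteins Ly6e (log2 -0.50 ± 0.08) and Ly6a (-0.58 ± 0.10), the DNA sensor family member Mndal (-0.60 ± 0.09), Ifi27 (-0.62 ± 0.09) and Shisa5 (-0.57 ± 0.10) fell as well, and these 6 genes kept their calls with each single library left out. Cxcl10, a chemokine induced by interferon gamma, had 49, 20 and 28 counts in the controls against 10, 7 and 10 after dapagliflozin. It fell 3.40-fold (log2 -1.77 ± 0.40, adjusted p = 0.0201), and of the single libraries left out its call remained only without MI-NS replicate 2. Apol9b had 19, 22 and 14 counts against 2, 7 and 5 (log2 -1.90 ± 0.45, adjusted p = 0.0249). Of the single libraries left out, the call of Apol9b remained only without MI-DAPA replicate 2. Uba7, Sp110, Helz2, Ifi30, Gbp4, Samd9l, Trim30a, Phf11d, Psmb8, Ifi203, Ifi204 and Ifi205 fell by 1.22-fold to 1.51-fold, and each of these 12 lost its call in at least 1 fit without a single library. The rises were 1 of the Gbp6 identifiers, ENSMUSG00000104713 (log2 0.62 ± 0.15, adjusted p = 0.0243), and Tor1aip1 (0.40 ± 0.12, adjusted p = 0.0487). The Gbp6 call was lost when replicate 3 of either group or replicate 2 of MI-DAPA was left out. That of Tor1aip1 remained, of single libraries left out, only without MI-NS replicate 1. Scaled by library totals alone neither was called, and scaled by upper quartile Tor1aip1 was not called.

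**Figure D3:**
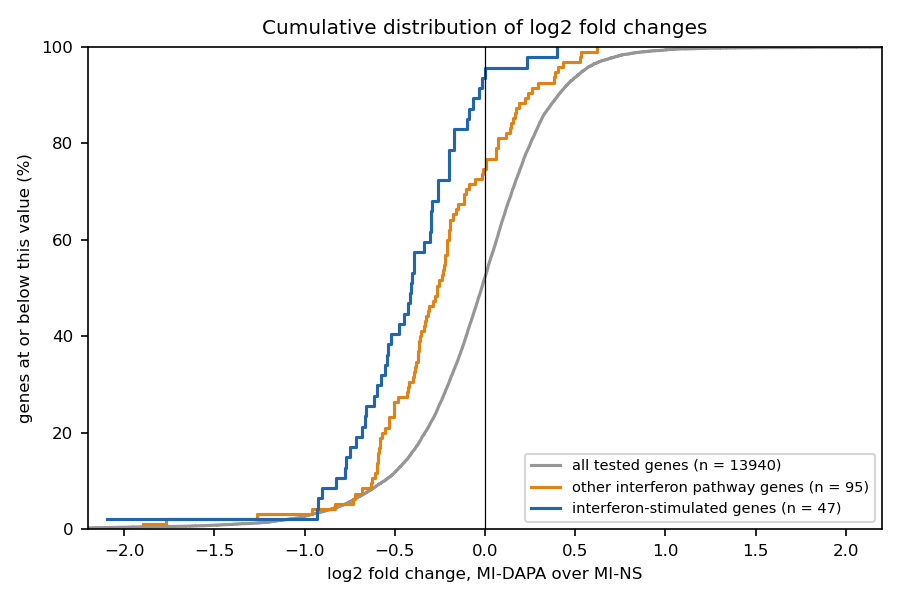
Cumulative share of genes (percent) by log2 fold change, MI-DAPA over MI-NS, for 47 interferon-stimulated genes, 95 other interferon pathway entries and all 13940 genes tested. The medians are -0.41, -0.26 and -0.02.

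Markers of the cells that could carry these transcripts moved between the groups too. The 11 macrophage markers, counted under 12 identifiers, summed to 266 to 316 CPM in MI-NS and 201 to 231 CPM in MI-DAPA, and 3 of 11 tested entries fell, all of them C1q subunits. The 6 endothelial markers summed to 975 to 1088 CPM against 813 to 856 CPM (3 fell), and the 6 fibroblast markers to 1217 to 1717 CPM against 754 to 894 CPM (3 fell). The 8 cardiomyocyte markers summed higher in MI-DAPA, at 62605 to 66193 CPM against 49174 to 50978 CPM, and 5 rose. Tnnt2, Tnni3 and Myl2 did not pass (log2 -0.007, 0.04 and 0.11). Among the 5, mean Myh6 went from 19211 to 25828 CPM and mean Atp2a2 from 6848 to 11244 CPM. Called lower were 27.3% of tested macrophage entries and 50% each of endothelial and fibroblast markers, against 7.83% of all genes. Called higher were 62.5% of cardiomyocyte markers, against 8.69% of all genes. Relative to MI-NS, the summed level of the interferon-stimulated genes was 0.776, that of macrophage markers 0.749, of endothelial markers 0.811, of fibroblast markers 0.564 and of cardiomyocyte markers 1.3. Monocyte markers summed to 17.2 to 19.4 against 13.7 to 16.4 CPM, and neutrophil markers to 4.17 to 7.59 against 3.53 to 6.25 CPM, with 0 of 3 and 0 of 4 tested genes called by edgeR and 0 of either with an unadjusted p under 0.05. Markers of other lymphoid and dendritic cells lay near the floor. T cell markers summed to 0.994 to 3.50 CPM over all libraries, B cell markers to 0.475 to 2.35 CPM, natural killer cell markers to 0.294 to 0.542 CPM and dendritic cell markers to 0.883 to 2.62 CPM. Siglech, a marker of plasmacytoid dendritic cells, had 3 counts at most, and Ccr9 had 0 in every library. The part of these cell types in the lower interferon-stimulated genes was not tested.

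**Figure D4:**
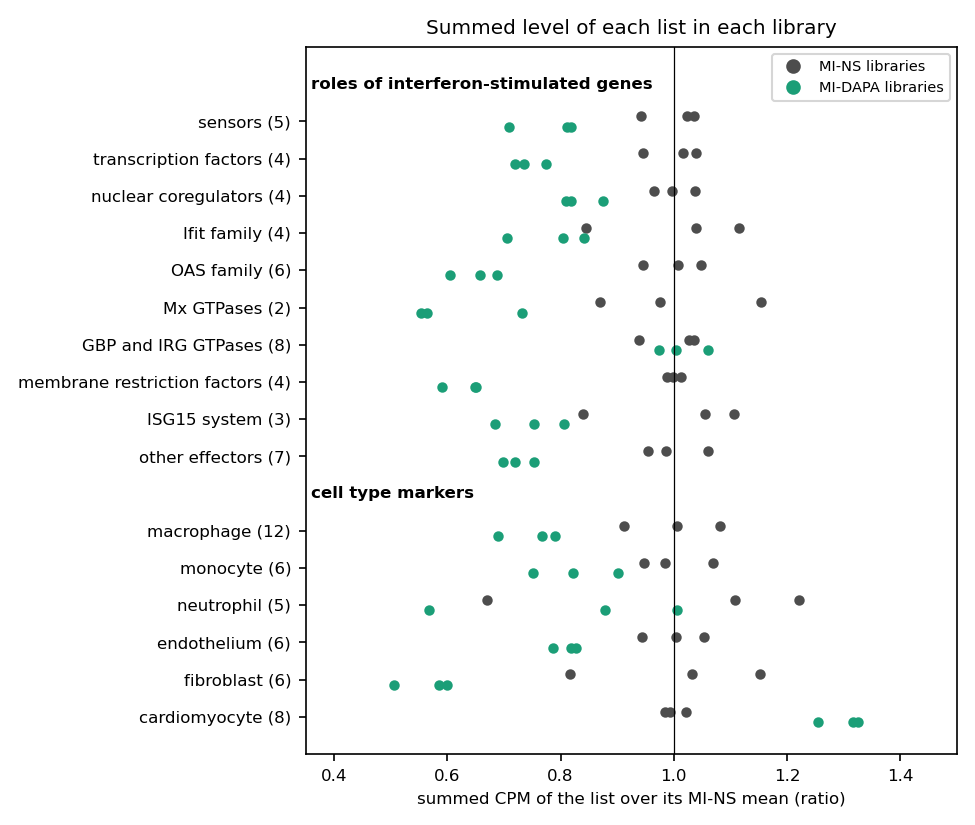
Summed CPM of each role group of interferon-stimulated genes and of cell type marker lists in each library, divided by the MI-NS mean of that list (number of identifiers in brackets). The T cell, natural killer cell, B cell and dendritic cell lists are not drawn. The GBP and IRG GTPases overlap between groups at 159 to 175 CPM in MI-NS and 165 to 179 CPM in MI-DAPA, while the membrane restriction factors stand at 207 to 212 CPM against 124 to 136 CPM.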

How the data were processed

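The authors deposited raw read counts per gene, 1 table per library, with whole numbers and no rows other than genes. Per the submitters' processing notes the build was mm10 and the tools named were StringTie 1.3.0 and edgeR. The sources used here give no aligner, counter or strand setting. By GENCODE M21, exonic bases are shared with a same-strand gene in 10 members and with an opposite-strand gene in 10, and with genes also in the deposited tables in 4 and 7. Their counts may include reads of that neighbour. Groups and replicate numbers come from the sample titles.

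Counts were tested with edgeR 4.0.16 in R 4.3.3: filterByExpr by group (minimum count 10, minimum total 15), TMM scaling, glmQLFit and glmQLFTest, and Benjamini-Hochberg adjustment over all 13940 genes, with a threshold of 0.05. SE is the absolute log2 change divided by the square root of F. CPM were computed from counts and TMM-scaled library sizes. Exon lengths are from the same annotation. The steps were tested on simulated data. Every 2 libraries differed beyond sampling noise (lowest chi-square over its degrees of freedom 10.6).

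The members and lists were chosen with earlier results of these data known. Called members and called pathway genes are named, with the other members by range and change and the main receptor and signalling genes whatever their result, of which 1 is not reported here. Uncalled members given library by library, and the marker genes named, were chosen after their values were seen. Alternatives were other scalings and filters, DESeq2 1.42.0, limma-voom (limma 3.58.1), a replicate block, mitochondrial genes left out, libraries left out and, added after seeing the data, a term for the differently named files. All 6 libraries were used.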

Additional observations from a re-analysis of the deposited data

How the results depend on the processing

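The members called lower numbered 14 to 20 across other scalings, filters and tests (14 with DESeq2, which gave Oas3 no adjusted p, and 14 with the replicate block), 9 to 17 with 1 library left out and 0 without replicate 3 of both groups. Members called higher numbered 0 with library totals alone, 0 with a term for the differently named files, 0 to 1 with 1 library left out and 0 without replicate 3 of both groups. Pathway falls numbered 8 to 17 with 1 library left out and 1 without replicate 3 of both groups. Pathway rises numbered 1 with library totals alone, 2 to 6 with 1 library left out and 0 without replicate 3 of both groups. The share of all genes called lower was 5.37% to 8.96% across other scalings, filters and tests (6.24% with DESeq2). It was 3.21% to 5.94% with 1 library left out and 0.114% without replicate 3 of both groups. The share called higher was 2.94% with library totals alone and 7.93% with the term for the differently named files. It was 3.81% to 7.71% with 1 library left out and 0.0568% without replicate 3 of both groups. The median change of the members stayed between -0.51 and -0.35 in the 17 alternatives. Library totals alone moved the median of all genes from -0.02 to -0.12 and gave 410 rises and 1249 falls, against 1212 and 1092.

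Changes close to 0 and not called in any fit switched sign. Eif2ak2 was at 0.00729 with DESeq2 size factors, 0.00901 with no filter, 0.0120 with the 1 CPM filter, 0.0121 with DESeq2, 0.000450 with limma-voom, 0.00272 with the replicate block, 0.0193 without mitochondrial genes and from -0.0844 to 0.0867 with 1 library left out. Gbp7 was at 0.000775 without mitochondrial genes, 0.0243 without replicate 3 of both groups and from -0.0402 to 0.0277 with 1 library left out. With 1 library left out Irgm2 ran from -0.0905 to 0.0111, Usp18 from -0.161 to 0.0304 and Rsad2 from -0.164 to 0.00902. Tyk2 was at 0.00238 without replicate 3 of both groups. The cause of these shifts was not tested.

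The deviations of same-numbered libraries correlated at 0.0436, -0.00507 and 0.113 for replicates 1, 2 and 3. The replicate 3 pair had the highest of the 9 values between groups, and the numbers were not taken as pairs because the other two lay under 0.1. With the replicate block 14 members were lower and 1 was higher, Ifih1, Sp100, Ifit3, Ifi47 and Xaf1 being not called (adjusted p from 0.0553 to 0.0657), and of pathway genes 24 were lower and 4 higher. In that fit 7.42% of all genes were called lower and 9.12% higher. The 2 counts of Oas3 in MI-DAPA replicate 2 lie under the floor of 3.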
